A study of Mus musculus with 6 samples.

Results

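Fam213b, the gene of an F synthase for prostaglandins and prostamides, was examined together with Mmel1, the gene next to it, and 8 other enzymes that make or break down prostaglandins. These 10 genes were taken by symbol from the 16743 gene identifiers of the expression tables, and each of the 10 had a value in every liver. Fam213b was selected on its measured difference between the groups described here, so its values are given as a description and without a test, while the other 9 genes were chosen by what their products do or by position. The tissue was liver from male F1 mice of the C57BL/6 background, wild type, on a normal chow diet and refed for 7 h before the liver was taken. In the 3 iAsF1-M mice the father had drunk water with 250 ppb inorganic arsenic (iAs, given as sodium arsenite) for 6 weeks after weaning, and in the 3 conF1-M mice the father had drunk normal water. The mothers and all F1 mice drank normal water, so exposure was through the father alone. The methods describe F1 cohorts drawn at random from several litters of separate breeding pairs. The age, father and litter of each of these 6 mice are not given in the sources used here, and each mouse was treated as independent.

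Prostaglandins are short-lived lipid signals made where they act. Phospholipases free arachidonate from membranes, cyclooxygenases turn it into an unstable endoperoxide, and terminal synthases turn that into prostaglandins of the D, E, F and I series or into thromboxane. The F synthase encoded by Fam213b is a thioredoxin-like protein that reduces the endoperoxide to the F form, and it does the same with the endoperoxide made from the endocannabinoid anandamide, which gives prostamide F. Carbonyl and aldo-keto reductases also make prostaglandin F. Spent prostaglandins are taken up by a transporter, oxidized by a dehydrogenase and then reduced by prostaglandin reductases, and the liver is a known site of this breakdown.

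In the GENCODE annotation of GRCm38, Fam213b (ENSMUSG00000029059) lies on chromosome 4 from 154895504 to 154899135 on the minus strand and has 3 transcripts. RefSeq lists the gene as Prxl2b. The protein-coding transcript Fam213b-201 has 7 exons, 883 bases and 201 codons before its stop. Its paired cysteine codons, the feature that marks a thioredoxin-like active site, are codons 44 and 47. The stretch that holds them is shown beside that of Fam213a-201, the related gene on chromosome 14 whose cysteine codons are 74 and 77, because the Fam213a transcript serves below as a comparison from the same family. Both run 5′ to 3′ on the coding strand, from the transcript sequences of that annotation, and capitals mark the cysteine codons.
Fam213b-201, codons 36 to 55: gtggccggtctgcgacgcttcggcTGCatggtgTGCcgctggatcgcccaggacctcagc
Fam213a-201, codons 66 to 85: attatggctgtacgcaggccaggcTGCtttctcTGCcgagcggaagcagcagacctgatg
The Fam213b stretch lies in 1 exon, chr4:154898579-154898638 on the minus strand, and the Fam213a stretch crosses an exon junction between 40998967 and 41002477 on chromosome 14. The stretches are identical at 29 of 60 bases, or 48.3%.

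The window around the RefSeq start of Fam213b is shown because the level of this gene differed. Expression was measured per gene, so the start in use in these livers is not known. In GENCODE, Fam213b-201 starts at 154899110 and Fam213b-203 at 154899135, both in the part of the window before the RefSeq start. The window spans 250 bases before and 50 after that RefSeq start in GRCm38.p6, chr4:154898994-154899293 on the minus strand. Capitals mark the motif GGGCGG, the GC box.
Fam213b promoter window: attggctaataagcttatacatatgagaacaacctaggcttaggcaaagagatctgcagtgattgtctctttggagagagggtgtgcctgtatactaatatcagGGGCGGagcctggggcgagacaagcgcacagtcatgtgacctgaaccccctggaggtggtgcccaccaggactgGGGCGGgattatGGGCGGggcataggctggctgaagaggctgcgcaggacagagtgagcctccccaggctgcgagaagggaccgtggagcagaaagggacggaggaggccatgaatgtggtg
GGGCGG was searched on both strands and found 3 times in this window, and 35.7% of 32851 promoter windows of the same length held it at least once. In 10.7% of those windows it occurred at least as often as in the Fam213b window. CCAAT occurred 1 time, as it or its complement does in 37.4% of all windows, TATAAA did not occur (13.6% of all windows) and CANNTG, the E-box, occurred 2 times (72.3% of all windows hold it). Of the 9 genes of the set that had an entry in the promoter table, 5 held GGGCGG. These matches describe letters only, and no binding or chromatin was measured in these livers.

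Expression is given in FPKM, 1 value per gene and liver, in which fragments are divided by the length of the gene and the size of the library. The tables hold no counts, and the steps between low values put the depth at about 19900000 to 22450000 fragments per liver, so that 1 fragment on a transcript of 1 kb is worth 0.0445 to 0.0503 FPKM. Liver identity was clear, as all 8 hepatocyte markers were measured at high levels, led by Alb. Among the iAsF1-M livers, iAsF1-M 3 alone was closer to the conF1-M livers than to its own group. Its mean Euclidean distance on the log2 scale was 28.0 to the conF1-M livers and 35.0 to the other iAsF1-M livers. The whole iAsF1-M group was spread, with 30.6 to 36.53 between its livers against 22.15 to 25.65 between conF1-M livers. The mean distance of iAsF1-M 2 to its own group was 33.6. iAsF1-M 1 was about as far from its own group as from conF1-M. Results that rest on iAsF1-M 3 are given with and without it, and each liver was also left out in turn. The test was limma on log2(FPKM + 1) for the 9695 genes whose mean reached 1 FPKM, where 6 genes had an adjusted p under 0.05, and a log2 difference is always iAsF1-M minus conF1-M on that scale. Over these genes the median log2 difference was -0.07. It was -0.0044 after quantile normalization and -0.001 after scaling by a trimmed mean of log ratios, and small differences below are to be read against this shift.

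Fam213b was lower in every iAsF1-M liver than in every conF1-M liver. Its level was 17.01, 13.13 and 12.81 FPKM in conF1-M 1, 2 and 3, and 3.81, 2.97 and 4.64 FPKM in iAsF1-M 1, 2 and 3. The 2 groups did not overlap, and the highest iAsF1-M liver, iAsF1-M 3, was far below the lowest conF1-M liver. The conF1-M mean was 14.3 ± 2.34 FPKM (SD, n = 3), and the iAsF1-M mean was 3.81 ± 0.835 FPKM (SD, n = 3), so the conF1-M mean was 3.76 times the iAsF1-M mean. The log2 difference was -1.68, and -1.80 without iAsF1-M 3. Because log2(FPKM + 1) understates the change of low values, it was -1.92 with a pseudocount of 0.01. In the conF1-M livers Fam213b stood above 83.4%, 80.3% and 80.7% of the 16727 genes with a single value, and in the iAsF1-M livers above 61.1%, 56.8% and 64.1%. At the estimated depths, and with the length of Fam213b-201, the levels correspond to about 338, 259 and 231 fragments for conF1-M 1, 2 and 3. For iAsF1-M 1, 2 and 3 they were about 71, 52 and 89. These are estimates for the longest transcript, and the shorter Fam213b transcripts would give fewer fragments.

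**Figure D1:**
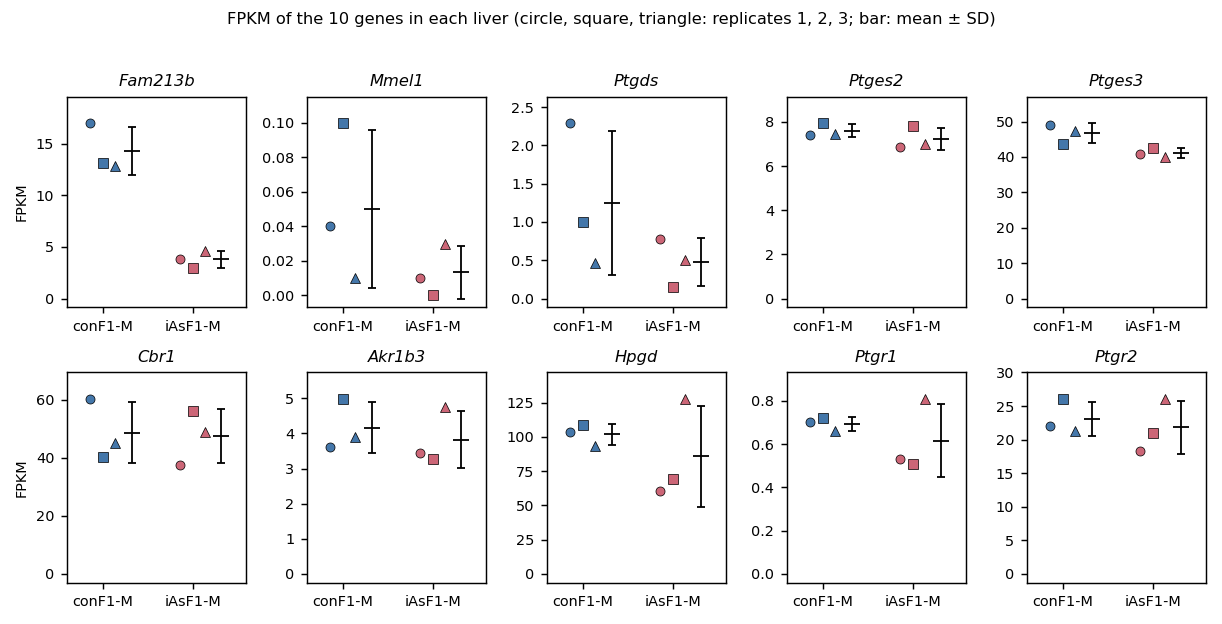
FPKM (vertical axes, linear, each gene on its own scale) of the 10 genes in the 3 conF1-M (blue) and 3 iAsF1-M livers (red), where symbols are replicates 1, 2 and 3 and black bars are the mean ± SD. Fam213b sits between 12.81 and 17.01 in conF1-M and between 2.97 and 4.64 in iAsF1-M, Ptges3 also does not overlap between groups, and the other 8 genes overlap.

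Mmel1, a membrane metallopeptidase of the neprilysin family, lies directly beside Fam213b on the plus strand, on chromosome 4 from 154869585 to 154895528. Only transcript Fam213b-202, a processed transcript of 522 bases, reaches into its last exon, over 25 bases (154895504 to 154895528), and the other 2 Fam213b transcripts share no exonic base with Mmel1. Mmel1 itself was almost silent. It was at 0.04, 0.1 and 0.01 FPKM in conF1-M and at 0.01, 0 and 0.03 FPKM in iAsF1-M. These values are worth 7 fragments or fewer per liver, the groups overlap, and a difference was not detectable at this depth. Against these stand the 231 to 338 fragments estimated for Fam213b in conF1-M and the 52 to 89 in iAsF1-M.

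Fam213b was set beside its other neighbours to see how the chromosome region behaved. Of 12 other annotated genes within 200 kb, 8 had a value and 5 were tested, and 0 of them passed the threshold or had an unadjusted p under 0.05 in limma. Over all genes tested 0.0619% passed and 8.17% had an unadjusted p under 0.05, so 5 genes are too few to describe the region. Pank4, a pantothenate kinase family member, was at 3.05, 3.44 and 3.31 FPKM in conF1-M and at 2.47, 2.95 and 2.7 FPKM in iAsF1-M. Its groups did not overlap, with iAsF1-M lower, as in 11.8% of all genes tested. Its log2 difference of -0.20 (SE 0.09) had an unadjusted p of 0.0529 and an adjusted p of 0.613 in limma. Tnfrsf14, a receptor of the tumour necrosis factor family, was the nearest tested gene. It was at 2.01, 1.9 and 1.39 FPKM in conF1-M and at 1.07, 0.99 and 1.6 FPKM in iAsF1-M, so only iAsF1-M 3 reached the conF1-M range. Its log2 difference was -0.32 (95% interval -0.64 to 0.00), with an unadjusted p of 0.0505 and an adjusted p of 0.609 in limma. The tested genes farther away were Pex10, a peroxisome biogenesis factor (-0.21, adjusted p 0.625 in limma), Rer1, a retention factor of the endoplasmic reticulum (-0.08, adjusted p 0.783 in limma), and Morn1 (0.08, adjusted p 0.772 in limma). Besides Mmel1, Ttc34 and Plch2 had values but were at 0.02 FPKM or less in every liver.

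**Figure D2:**
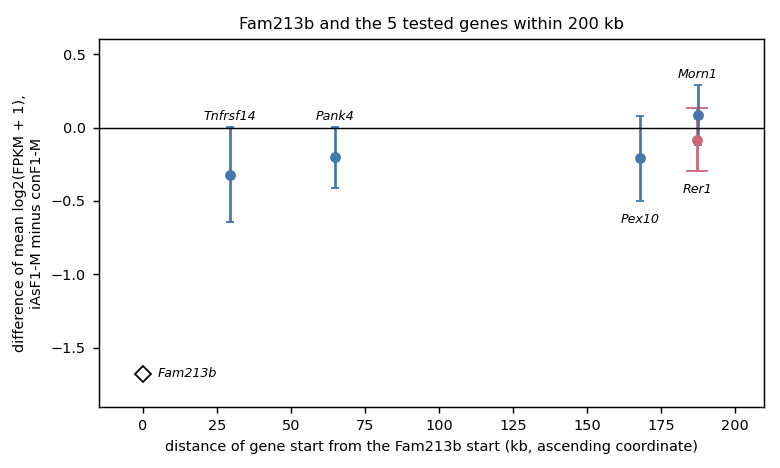
Log2 difference between groups (vertical axis) of Fam213b and the 5 tested genes within 200 kb, against the distance of each gene start from the Fam213b start in kb, with bars for the 95% interval from limma (Fam213b has none because it was chosen on this value). Fam213b is at -1.68, the 5 neighbours lie between -0.32 and 0.08, and every interval reaches 0, with Rer1 (red) and Morn1 starting almost at the same point.

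The other enzymes that make prostaglandin F were led by Cbr1, a carbonyl reductase that turns prostaglandin E into F. Cbr1 was at 60.29, 40.39 and 45.14 FPKM in conF1-M and at 37.51, 56.09 and 48.86 FPKM in iAsF1-M. The groups overlapped widely, with the highest value in conF1-M 1 and the lowest in iAsF1-M 1. The log2 difference was -0.03 (SE 0.19, 95% interval -0.47 to 0.40, adjusted p of 0.963 in limma), and its sign turned with the scaling between libraries or without conF1-M 1 or iAsF1-M 1. Akr1b3, an aldose reductase with prostaglandin F synthase activity, was at 3.62, 4.99 and 3.89 FPKM in conF1-M and at 3.43, 3.27 and 4.75 FPKM in iAsF1-M. Its groups overlapped, and the log2 difference was -0.11 (SE 0.15, 95% interval -0.45 to 0.24, adjusted p of 0.829 in limma). The intervals of both genes reach 0, and Fam213b, chosen on its difference, has no interval to set beside them. Akr1b8, a related aldo-keto reductase, had means of 1.49 and 1.21 FPKM (adjusted p of 0.673 in limma), and Cbr3, Akr1b7 and Akr1c18 stayed at 0.33 FPKM or less in every liver.

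Since FPKM are per length, the 7 F synthase genes were summed within each liver to see what part Fam213b made up. Fam213b held 20.5%, 21.8% and 20.1% of the sum in conF1-M 1, 2 and 3 and 8.25%, 4.66% and 7.71% in iAsF1-M 1, 2 and 3. The mean share was 20.8% ± 0.908 (SD, n = 3) in conF1-M and 6.87% ± 1.94 (SD, n = 3) in iAsF1-M. Fam213b is part of the sum and was chosen for its difference, so the shares carry no test. Cbr1 held 70.1% ± 2.85 (SD, n = 3) and 83.4% ± 3.89 (SD, n = 3). The summed level itself overlapped between groups, at 82.94, 60.22 and 63.88 FPKM in conF1-M and at 46.2, 63.79 and 60.18 FPKM in iAsF1-M. The F synthase transcripts were therefore mostly Cbr1 in every liver, and Fam213b came next in every conF1-M liver and in iAsF1-M 1, while Akr1b3 was above it in iAsF1-M 2 and 3.

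**Figure D3:**
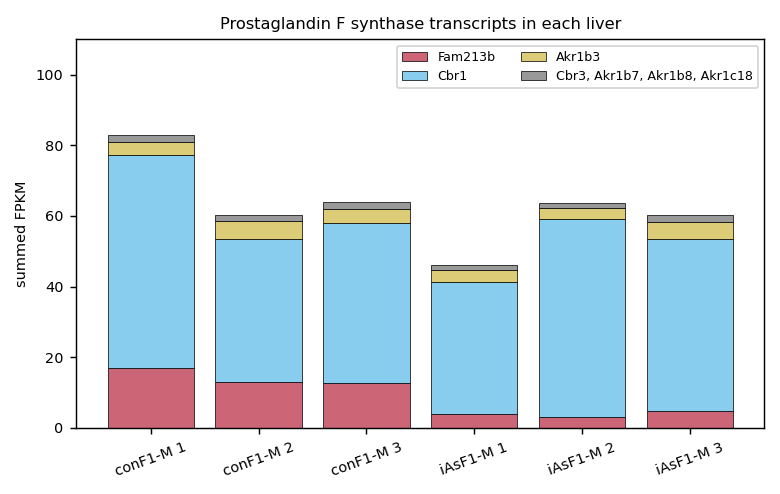
Summed FPKM (vertical axis, linear from 0) of 7 prostaglandin F synthase genes in each of the 6 livers, stacked by gene. Fam213b (red, bottom) makes up 20.1% to 21.8% in conF1-M and 4.66% to 8.25% in iAsF1-M, while Cbr1 (light blue) makes up most of the sum in all 6 livers.

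Synthases of prostaglandins E and D were covered by 3 genes of the set. Ptges2, a membrane-associated prostaglandin E synthase, was at 7.39, 7.94 and 7.47 FPKM in conF1-M and at 6.88, 7.81 and 6.98 FPKM in iAsF1-M. These overlapping groups had a log2 difference of -0.07 (SE 0.08, 95% interval -0.26 to 0.13, adjusted p of 0.81 in limma). Ptges3, a cytosolic prostaglandin E synthase that is also known as a co-chaperone, was at 49.16, 43.75 and 47.42 FPKM in conF1-M and at 40.79, 42.62 and 40.0 FPKM in iAsF1-M. Every iAsF1-M liver was below every conF1-M liver, the smallest gap being between iAsF1-M 2 and conF1-M 2. The conF1-M mean was 46.8 ± 2.76 FPKM (SD, n = 3), and the iAsF1-M mean was 41.1 ± 1.34 FPKM (SD, n = 3). The log2 difference of -0.18 (SE 0.09, 95% interval -0.38 to 0.02) had an unadjusted p of 0.0694 and an adjusted p of 0.616 in limma, so it did not pass. Ptgds, the lipocalin-type prostaglandin D synthase, was at 2.29, 1.0 and 0.46 FPKM in conF1-M and at 0.78, 0.15 and 0.5 FPKM in iAsF1-M. Replicates varied widely within conF1-M alone, the groups overlapped, and with a mean of 0.863 FPKM the gene was not tested.

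Enzymes of prostaglandin breakdown included the most abundant gene of the set. Hpgd, the dehydrogenase that takes the first step of inactivation, was at 103.41, 108.51 and 93.61 FPKM in conF1-M and at 60.2, 69.49 and 127.9 FPKM in iAsF1-M. The iAsF1-M livers disagreed among themselves, as iAsF1-M 1 and 2 were below every conF1-M liver and iAsF1-M 3 was above all of them. The conF1-M mean was 102 ± 7.57 FPKM (SD, n = 3), and the iAsF1-M mean was 85.9 ± 36.7 FPKM (SD, n = 3), and the log2 difference was -0.32 (SE 0.25, 95% interval -0.91 to 0.27, adjusted p of 0.706 in limma). Without iAsF1-M 3 it was -0.64 with an adjusted p of 0.0568 in limma, still over the threshold, and without iAsF1-M 1 it was -0.11. Ptgr2, a prostaglandin reductase that acts after the dehydrogenase, was at 22.04, 25.98 and 21.24 FPKM in conF1-M and at 18.35, 21.0 and 26.1 FPKM in iAsF1-M. The groups overlapped, and iAsF1-M 3 was again the highest liver by a small margin, with a log2 difference of -0.09 (SE 0.14, 95% interval -0.41 to 0.24, adjusted p of 0.852 in limma). Ptgr1, a second reductase, was at 0.7, 0.72 and 0.66 FPKM in conF1-M and at 0.53, 0.51 and 0.81 FPKM in iAsF1-M and was not tested. It had the same arrangement of livers as Hpgd, with iAsF1-M 1 and 2 below and iAsF1-M 3 above all conF1-M livers.

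Of the 9 genes other than Fam213b, 6 passed the filter on low values and were tested, and Mmel1, Ptgds and Ptgr1 did not. Of the 6, 0 had an adjusted p under 0.05 in limma, against 0.0619% of all genes tested, and 0 had an unadjusted p under 0.05, against 8.17%. Without iAsF1-M 3 the unadjusted count was 1 (Hpgd), against 16.9%. One of the 6, Ptges3, had groups that did not overlap with iAsF1-M lower, against 11.8% of all genes tested. All 6 log2 differences were below 0 with the FPKM as given, with a median of -0.10, but 5 were below 0 after quantile normalization and 4 after scaling by a trimmed mean. Of all genes tested, 6744 of 9695 were below 0 with the FPKM as given, and those with an unadjusted p under 0.05 split into 654 lower and 138 higher. That split became 350 lower and 333 higher after quantile normalization and 325 and 319 after scaling by a trimmed mean, so the side of 0 on which a small difference falls depends on the scaling.

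By mean level over the 6 livers the order was Hpgd (93.8 FPKM), Cbr1 (48.0 FPKM), Ptges3 (44.0 FPKM), Ptgr2 (22.4 FPKM), Fam213b (9.06 FPKM), Ptges2 (7.41 FPKM), Akr1b3 (3.99 FPKM), Ptgds (0.863 FPKM), Ptgr1 (0.655 FPKM) and Mmel1 (0.0317 FPKM). The ranges over livers overlapped between Hpgd and Cbr1, Cbr1 and Ptges3, Fam213b and Ptges2, and Ptgds and Ptgr1, so over all 6 livers pooled these neighbours in the order are not separated. Within each liver Hpgd was above Cbr1, by 1.24 to 2.69 times. Fam213b was above Ptges2 in each conF1-M liver and below it in each iAsF1-M liver.

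The rest of the prostaglandin pathway was taken from lists of enzymes, transporters and receptors. Without Fam213b, 37 pathway genes had values and 15 were tested, and 0 passed the threshold or had an unadjusted p under 0.05 in limma. Without iAsF1-M 3, 0 passed and 3 (Hpgd, Zadh2 and Akr1b8) had an unadjusted p under 0.05, beside 16.9% of all genes tested. Of these 15, 14 had a log2 difference below 0 with the FPKM as given, 13 after quantile normalization and 12 after scaling by a trimmed mean, and the median was -0.13 beside -0.07 over all genes tested. Over all genes tested 69.6%, 51.3% and 50.5% were below 0 under these 3 scalings. Groups did not overlap, with iAsF1-M lower, in 3 of the 15 (Ptges3, Ptgs1 and Pla2g16), against 11.8% of all genes tested. With Tbxa2r it was 4 of the 37, close to the share of 9.47% among all 16727 genes. Ptgs1, the constitutive cyclooxygenase, was at 3.13, 3.07 and 3.39 FPKM in conF1-M and at 2.64, 2.98 and 2.21 FPKM in iAsF1-M, with a log2 difference of -0.22 (SE 0.10, adjusted p of 0.616 in limma). Ptgs2, the inducible cyclooxygenase, was at 0.02 FPKM or less in every liver. The phospholipases were led by Pla2g12b, a secreted member with means of 29.3 and 25.5 FPKM (log2 difference -0.19, adjusted p of 0.624 in limma), and the 5 tested members had a median log2 difference of -0.16. Pla2g16, a phospholipase of fat tissue, separated by only 0.01 FPKM, from 3.47 in conF1-M 2 to 3.46 in iAsF1-M 2.

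Further along the breakdown route, Zadh2, another prostaglandin reductase, was at 26.5, 28.98 and 25.82 FPKM in conF1-M and at 21.56, 22.08 and 31.18 FPKM in iAsF1-M, with a log2 difference of -0.13 (SE 0.14, adjusted p of 0.777 in limma). The dehydrogenase Hpgd and the reductases Ptgr1, Ptgr2 and Zadh2 thus shared 1 arrangement, in which iAsF1-M 1 and 2 were below and iAsF1-M 3 above every conF1-M liver. This was noticed after the values were seen and carries no test, and 3.52% of the 16727 genes had the same arrangement (5.31% of the genes tested, Hpgd, Ptgr2 and Zadh2 being among them). Without iAsF1-M 3 the log2 difference was -0.22 for Ptgr2 and -0.30 for Zadh2, with adjusted p of 0.386 and 0.18 in limma. Fam213b did not share the arrangement, as iAsF1-M 3 was below every conF1-M liver. Its relative Fam213a, the thioredoxin gene Txn1 and the hepatocyte markers Alb and Ttr did share it, so it was not particular to the breakdown route. Slco2a1, the prostaglandin uptake transporter, had means of 16.5 and 17.4 FPKM (log2 difference 0.06, adjusted p of 0.899 in limma) and was the one tested pathway gene above 0. None of the 8 prostanoid receptors with a value reached the filter. The highest of them by the mean over the 6 livers, Tbxa2r, the thromboxane receptor, was at 0.47, 0.39 and 0.63 FPKM in conF1-M and at 0.2, 0.16 and 0.14 FPKM in iAsF1-M, groups that did not overlap, and it was not tested. The other 7 receptors, Ptgfr for prostaglandin F among them, stayed at 0.34 FPKM or less in every liver. Ptgfr itself was at 0.04, 0.02 and 0.01 FPKM in conF1-M and at 0, 0.02 and 0.01 FPKM in iAsF1-M, near the worth of single fragments, so at whole-liver level the receptor of the F product was barely measured.

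**Figure D4:**
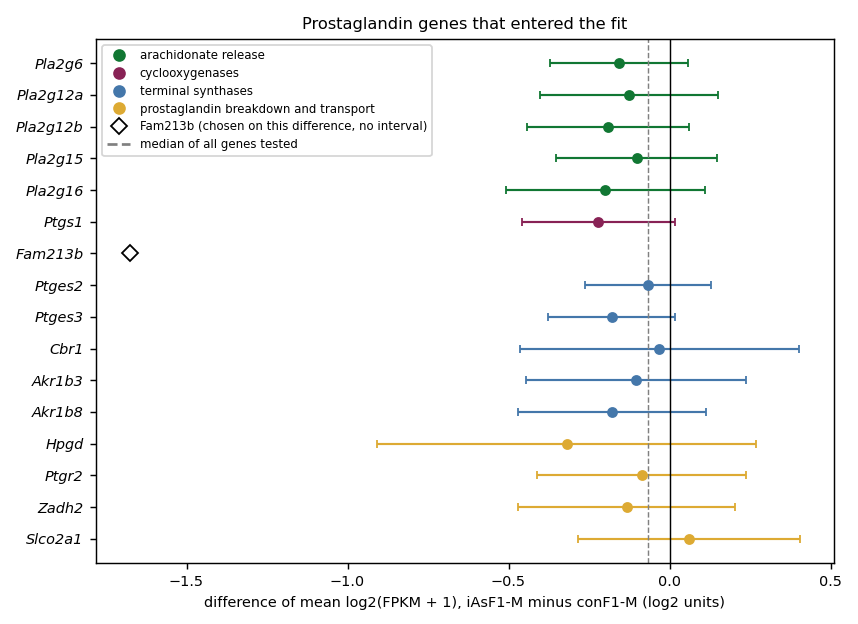
Log2 difference between groups (horizontal axis, iAsF1-M minus conF1-M of mean log2(FPKM + 1)) of Fam213b and the 15 other prostaglandin genes tested, with bars for the 95% interval from limma and colours for the step of the pathway. The 15 genes lie between -0.32 (Hpgd) and 0.06 (Slco2a1), every interval reaches 0, and the diamond of Fam213b at -1.68 has no interval because the gene was chosen on this value.

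Fam213b was also set beside the supply of its prostamide substrate and beside its protein family. In the anandamide list 3 of 5 genes were tested and 0 passed, against 0.0619% of all genes tested. Its most abundant member, Gde1, a phosphodiesterase of anandamide synthesis, had means of 44.1 and 50.4 FPKM (log2 difference 0.17, adjusted p of 0.724 in limma), and Faah, the amide hydrolase that degrades anandamide, had means of 33.8 and 31.7 FPKM (log2 difference -0.10, adjusted p of 0.784 in limma). The 12 other peroxiredoxin and thioredoxin genes were all tested, 0 passed, and their median log2 difference was -0.10. With the FPKM as given 10 were below 0, with 9 after quantile normalization and 8 after scaling by a trimmed mean. Over all genes tested these shares were 69.6%, 51.3% and 50.5%. Groups did not overlap, with iAsF1-M lower, in 2 of the 12 (Prdx2 and Prdx4), against 11.8% of all genes tested. Without iAsF1-M 3, 11 were below 0, beside 67.7% of all genes tested. In that fit 3 (Prdx2, Prdx6 and Txn1) had an unadjusted p under 0.05 in limma, beside 16.9%. Prdx1, a peroxiredoxin and the most abundant of them, had means of 618 and 574 FPKM (adjusted p of 0.752 in limma). The closest relative shown above, Fam213a, was at 42.44, 48.2 and 35.67 FPKM in conF1-M and at 35.43, 32.85 and 51.99 FPKM in iAsF1-M, with a log2 difference of -0.09 (SE 0.19, 95% interval -0.52 to 0.34, adjusted p of 0.888 in limma). The ratio of Fam213b to Fam213a within a liver was 0.401, 0.272 and 0.359 in conF1-M and 0.107, 0.0904 and 0.0892 in iAsF1-M, again without overlap and, as it contains Fam213b, without a test.

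The 5 tested genes whose log2(FPKM + 1) followed Fam213b most closely over the 6 livers were Tmem265 (Pearson's r of 0.995), Tysnd1, a peroxisomal protease (0.994), Ninj1, a protein of plasma membrane rupture (0.991), Usf1, a transcription factor (0.989), and Gng11, a G protein subunit (0.989). These coefficients are a description over 6 points that share libraries and the group difference, and they say nothing on function. The 5 genes differed far less between groups than Fam213b, with log2 differences from -0.48 (Gng11) to -0.19 (Ninj1).

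Whole liver holds several cell types, and fewer cells of a type cannot be told apart from less RNA per cell. Sinusoidal endothelial markers were lower in the iAsF1-M group mean, as Fam213b was, with 9 of 10 below 0 and a median log2 difference of -0.30. Of the 10, 5 (Clec4g, Dnase1l3, Fcgr2b, Kdr and Pecam1) had an unadjusted p under 0.05, and none passed after adjustment in limma. Over all genes tested 69.6% were below 0 and 8.17% had an unadjusted p under 0.05. The same 5 markers were at an unadjusted p under 0.05 after quantile normalization and after scaling by a trimmed mean, with medians of -0.25 and -0.24, and 4 of them were without iAsF1-M 3. Over the 6 livers Pearson's r of those 5 markers with Fam213b was 0.676 to 0.877. With the mean of each group taken off, r was -0.571 (Pecam1) to -0.017 (Fcgr2b) for those 5. It reached 0.094 (Oit3) among all 10, and it was -0.268 (Dcn) to 0.532 (Lrat) for the 7 tested stellate cell markers. With 3 livers per group these coefficients are a description and were not tested. The summed level of the 10 endothelial markers was 76.3 to 98.1 FPKM in conF1-M and 57.8 to 69.5 FPKM in iAsF1-M, and every one of the 10 was above 0 in all livers. Of 10 Kupffer cell markers 7 were below 0 and 3 above, with a median of -0.13, but without iAsF1-M 3 it was 2 below and 8 above, with a median of 0.22. Clec4f (log2 difference -0.46) was the one with an unadjusted p under 0.05 over all 6 livers. Marco went the other way, at 1.28, 1.6 and 1.21 FPKM in conF1-M and at 10.2, 28.41 and 0.82 FPKM in iAsF1-M (log2 difference 1.84, adjusted p of 0.616 in limma). The Kupffer marker sum ranged from 148 to 168 FPKM in conF1-M and from 91.3 to 231 FPKM in iAsF1-M. Of 10 stellate cell markers 7 were tested, with 6 below 0 and a median of -0.22. After quantile normalization 5 of the 7 were below 0, with a median of -0.16. Lrat (-0.40) was the one with an unadjusted p under 0.05 in limma. The stellate marker sums were 133 to 180 FPKM in conF1-M and 119 to 138 FPKM in iAsF1-M. Of 6 cholangiocyte markers only Spp1 was tested (0.30, adjusted p of 0.771 in limma), and hepatocyte marker sums were 55982 to 60367 FPKM and 47969 to 64482 FPKM. The part of these markers in the Fam213b difference was not tested.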

How the data were processed

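Total RNA of 6 male F1 livers, 3 conF1-M and 3 iAsF1-M, was sequenced as paired-end reads. The authors filtered the reads for adapters and poor or unknown bases, aligned what was left to GRCm38 with HISAT2 and called changed genes with DESeq2. The deposited values are FPKM, which scale with gene length and library total. The program, gene annotation and strand setting behind them are not given in the sources used here, and without strand, reads of overlapping genes cannot be told apart. FPKM are no counts, so count tests could not be used.

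Of 16743 identifiers, 16740 were named through GENCODE vM21 (GRCm38), and 16 on 2 lines were left out. Genes whose mean reached 1 FPKM were fitted on log2(FPKM + 1) by lmFit and eBayes with a trend and no block (limma 3.58.1, R 4.3.3), two-sided, with Benjamini-Hochberg adjustment over all 9695 genes and a threshold of 0.05. The fit was tested on simulated data. The methods describe cohorts spread over several litters, but the litter of each liver is not given, so a litter could not enter the fit.

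Depth was estimated from steps between low FPKM. Of the low values 46.8% to 57.8% lay within 0.15 of a whole fragment, against 30% by chance, so counts were not recovered. Fragment numbers are estimates from the longest transcript.

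Named genes were the 10 genes of the set, list members with an unadjusted p under 0.05 or else the most abundant member, genes within 200 kb of Fam213b, and the 5 with the highest correlation with it. Other list members named with values were chosen after their values were seen. The genes and lists were chosen with earlier results of these data known. Alternatives were other pseudocounts, filters, scalings, variance models, library weights, a replicate block and leaving out each liver. Ptgdr was not analysed here. Sequences came from RefSeq (GRCm38.p6) and GENCODE vM21 transcripts.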

Additional observations from a re-analysis of the deposited data

How the results depend on the processing

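The log2 difference of Fam213b stayed below 0 in all settings run. It was -1.68 with the FPKM as given, -1.89 and -1.92 with pseudocounts of 0.1 and 0.01, -1.61 after either scaling, and -1.80 to -1.55 when 1 liver was left out. Its share of the F synthase sum was lower in iAsF1-M by 13.9 percentage points (-13.9), and by -14.6 to -12.8 without 1 liver. The counts of other genes of the set and of pathway genes past the threshold stayed at 0 in all settings, also with each liver left out. Over all genes the number past the threshold was 72 without iAsF1-M 3, beside 6, and 3 to 8 without another liver.

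Differences of other genes that missed the threshold turned their sign in places. Ptges2 was at 0.0017 after scaling by a trimmed mean. Cbr1 was at 0.031 after quantile normalization, 0.0436 after scaling by a trimmed mean and 0.0092 with library weights, and from -0.16 to 0.13 over the livers left out. Over the livers left out Akr1b3 ranged from -0.24 to 0.0062 and Ptgr2 from -0.22 to 0.0248. The cause was not tested. The other differences of genes in the set kept their sign, and none of them passed under any setting. For list genes outside the set only counts were followed, and some of these also turned their sign.

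Deviations from the group mean had correlations of 0.17, -0.10 and -0.02 between livers with the same replicate number. Between livers with different numbers they ranged from -0.13 to 0.168. No pairing was seen, but 3 livers per group are too few to exclude one. With a replicate block the Fam213b difference was -1.68, 0 other genes of the set and 0 pathway genes passed, and 5 of all genes did. Values under about 0.05 FPKM, such as those of Mmel1, Ptgs2 and Ptgfr, are near single fragments, and depth limits what they can show.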
